A study of Mus musculus with 6 samples.

Results

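The genes described here are the AP-1 transcription factors and a few close relatives, in RAW-D cells, a macrophage line of the mouse with the capacity to become osteoclasts. They were chosen by symbol: Jun, Junb and Jund of the JUN family, Fos, Fosb, Fosl1 and Fosl2 of the FOS family, and Atf3, Batf and Maff. All 10 had a probe set on the Clariom S array, among 19505 genes with a symbol, and where a gene had several the one with the highest mean was used. Total RNA was measured on 6 arrays, 1 per culture. KO cells with LPS were Lpin2 knockout clones #1 and #2 given 200 ng/mL lipopolysaccharide, the cell wall component that TLR4 senses, for 4 h. WT cells with LPS had the same dose and time (1 array). Untreated KO cells were the same clones without LPS, and untreated WT cells were the WT line without LPS (1 array). Lpin2 encodes lipin2, a phosphatidate phosphatase. Each KO line is 1 clone, picked after transfection with CRISPR/Cas9 and repair plasmids and puromycin selection, and the sources used here do not say if the WT cells went through such a selection.

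AP-1 is a family of dimers of basic leucine zipper (bZIP) proteins. JUN proteins pair with each other, with FOS proteins or with ATF proteins, whereas FOS proteins need a JUN partner to bind DNA. The usual binding sequences are the TPA response element (TRE, TGACTCA) and the cyclic AMP response element (CRE, TGACGTCA). Many of these genes are immediate early genes, which are transcribed within minutes of a stimulus such as LPS without new protein synthesis, and many of their transcripts have a short life. In the monocyte lineage, FOS is needed for osteoclast formation, and ATF3 is known as an LPS-induced brake on cytokine genes in mouse macrophages.

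The deposited values are log2 signals that the authors made with RMA. A signal no higher than the 95th percentile of negative control probes on its own array was taken as background, or dim, and a group was dim where none of its arrays exceeded that percentile. That limit was 9.44 and 9.43 in KO clones #1 and #2 with LPS, 9.12 in WT cells with LPS, 9.34 and 9.45 in the untreated clones and 9.21 in untreated WT cells. Of the 10 genes, 7 exceeded it on at least 1 array and 4 (Junb, Jund, Fos and Fosl1) on every array, against 6708 and 4905 of all 19505 genes. Fosb, Batf and Maff were dim throughout, so their differences compare signals within the range of the negative controls and carry no fold. Where 1 of the groups was dim, a fold is given as a lower bound, with the limit of the array in place of the signal if that is higher. The adjusted p beside it tests the signals as measured. The other group entered as measured even where 1 of its clones was under its limit (Atf3, Fosl2 and Mafk in KO cells with LPS). Such a fold is not a strict bound. Signals of different genes come from different probes and were not compared with each other. In bulk RNA, fewer cells that express a gene and less RNA of it per cell cannot be told apart.

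Groups were compared with limma in 1 fit over the 6 arrays, with p adjusted by Benjamini-Hochberg over 19505 genes and a threshold of 0.05. Only the differences between clones gave the spread (2 residual degrees of freedom), on the assumption that WT cells vary like a clone. For 2 arrays against 1, the smallest p of an exact permutation test is 0.333. Leaving out a KO array of the other treatment cannot move KO minus WT and changes only its estimated spread. Lpin2 itself was dim on all 6 arrays (7.52 and 7.98 in the clones with LPS against 6.84 in LPS-treated WT cells, 7.97 and 8.42 in the untreated clones against 7.21 in untreated WT cells), so this probe set did not check the genotype. Of 8 macrophage markers measured, 6 exceeded background on every array and Mertk on none. None of 4 T cell, 3 B cell and 5 fibroblast or epithelial markers did so on any array. The macrophage markers were not level between the genotypes: 3 of 8 were higher in untreated KO cells (2.16% of all genes), Adgre1 (a macrophage surface receptor) among them by 2.52 (log2). The summed level of the list was 19.4 in both untreated clones against 18.9 in untreated WT cells. With LPS it was 19.2 in both clones against 19.0 in WT cells. Of 6 osteoclast markers, 4 exceeded background on every array and Mmp9 and Calcr on none. Their summed level was 15.1 and 15.4 in the clones with LPS against 15.0 in LPS-treated WT cells. Untreated, it was 13.8 and 13.9 in the clones against 14.9 in untreated WT cells. In KO cells LPS raised 3 of the 6, Acp5, Ocstamp and Dcstamp (6.84% of all genes). KO cells with LPS had Ocstamp higher (4.62% of all genes) and Mmp9 lower (6.66%) than WT cells with LPS. Untreated KO cells had Mmp9 lower (2.14% of all genes). The part of these shifts in the results below was not tested. A gene-level summary is named on the label of untreated WT cells and an exon-level summary on the other 5 labels, which touches each comparison with untreated WT cells.

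The LPS response in WT cells was small on these arrays, which sampled LPS at 4 h alone. Earlier changes, such as those of immediate early genes within minutes, were not measured in either genotype. Between the WT arrays, 144 of 19505 genes differed by over 2-fold, against 2337 between the KO means, and no gene passed the limma test in WT cells (658 had an unadjusted p under 0.05, and 1 gene passed with an intensity trend in the moderation). Each comparison of KO with WT cells after LPS therefore sets clones with many LPS differences against a WT array close to its untreated one.

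The promoters of 9 of the 10 genes matched the RefSeq table of mouse build GRCm38.p6 (the entry for Fosl1 was not in it), and they are shown because AP-1 genes are known to be controlled by AP-1 and ATF proteins themselves. The 120 bases before the annotated start of 6 genes are given 5′ to 3′ on the strand of the gene, with the CRE, the sequence TGACATCA or the CRE core TGACG in capitals on either strand (CGTCA is the core read on the other strand).
Jun: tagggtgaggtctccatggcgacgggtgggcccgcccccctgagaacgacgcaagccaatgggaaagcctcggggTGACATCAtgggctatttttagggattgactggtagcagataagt
Junb: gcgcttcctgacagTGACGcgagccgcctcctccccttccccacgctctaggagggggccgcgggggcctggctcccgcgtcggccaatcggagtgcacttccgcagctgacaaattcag
Fos: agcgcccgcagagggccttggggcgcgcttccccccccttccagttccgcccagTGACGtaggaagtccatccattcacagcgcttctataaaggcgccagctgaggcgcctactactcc
Atf3: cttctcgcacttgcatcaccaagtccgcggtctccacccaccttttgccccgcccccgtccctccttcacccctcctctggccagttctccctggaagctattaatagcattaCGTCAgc
Batf: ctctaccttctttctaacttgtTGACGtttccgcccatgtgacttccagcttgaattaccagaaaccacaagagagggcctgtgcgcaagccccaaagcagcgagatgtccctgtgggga
Maff: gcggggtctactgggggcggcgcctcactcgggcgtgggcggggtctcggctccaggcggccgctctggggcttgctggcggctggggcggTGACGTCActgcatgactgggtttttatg
They lie at chr4:95052223-95052342 (minus strand) for Jun, chr8:84978749-84978868 (minus strand) for Junb, chr12:85473770-85473889 (plus strand) for Fos, chr1:191183334-191183453 (minus strand) for Atf3, chr12:85686600-85686719 (plus strand) for Batf and chr15:79347400-79347519 (plus strand) for the middle of 3 annotated starts of Maff. The window searched ran from 250 bases before to 50 after each start, on both strands. TGACATCA stood in Jun at -45 to -38 and before another start of Maff at the same positions, and in 3.62% of all 32851 promoters. A full CRE was found in Maff alone of the 9 genes, at -29 to -22, and in 1.79% of all promoters. The core TGACG, which every CRE contains, was present in 6 genes (Junb, Fos, Fosb, Atf3, Batf and Maff). That is 7 of the 11 promoters of the 9 genes, beside 20.8% of all promoters. None of the 9 genes had the TRE TGACTCA (5.2% of all promoters) or a CArG box, the site of serum response factor (1.63%), in this window. Bases further from the start were not searched, so this does not show that a gene lacks such a site. A κB site was present in Fos, Fosb, Fosl2 and Maff, and in 8.46% of all promoters. These matches are letters in a window and not sites of binding.

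KO cells with LPS differed from WT cells with LPS in 6 of the 10 genes, of which Batf and Maff were dim in both groups. Fosl1, Atf3 and Maff were higher (4.62% of all genes were) and Jun, Fosl2 and Batf were lower (6.66% of all genes were). In untreated cells, 4 genes were lower in KO cells (2.14% of all genes), Jun, Fosl1, Fosl2 and Batf, with Jun and Batf dim in both groups. None of the 10 was higher (2.16% of all genes), although Fos and Atf3 were higher at an unadjusted p under 0.05. LPS raised 5 of the 10 in KO cells, Junb, Jund, Fosl1, Fosl2 and Maff (6.84% of all genes), with or without the adjustment. It lowered none either way (9.8% of all genes), and Maff was dim in both treatments. In WT cells 0 of the 10 and 0% of all genes passed for LPS. With 1 WT array per treatment the spread came from the clones, so this does not show that nothing changed. The LPS response differed between KO and WT cells for Fosl1 alone, by being larger in KO cells (1.43% of all genes were higher in this test and 1.86% lower). The median difference of the 10 genes between KO and WT cells was 0.59 with LPS and -0.39 untreated (log2), beside 0.00 and 0.03 over all genes. The shares above count all 19505 genes, most of them dim. A fit of only the 6708 genes above background on at least 1 array held 7 of the 10. Between KO and WT cells with LPS it called 5 of the 7 and 2196 genes. Untreated it called 3 and 1043, and for LPS in KO cells 4 and 3042.

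**Figure D1:**
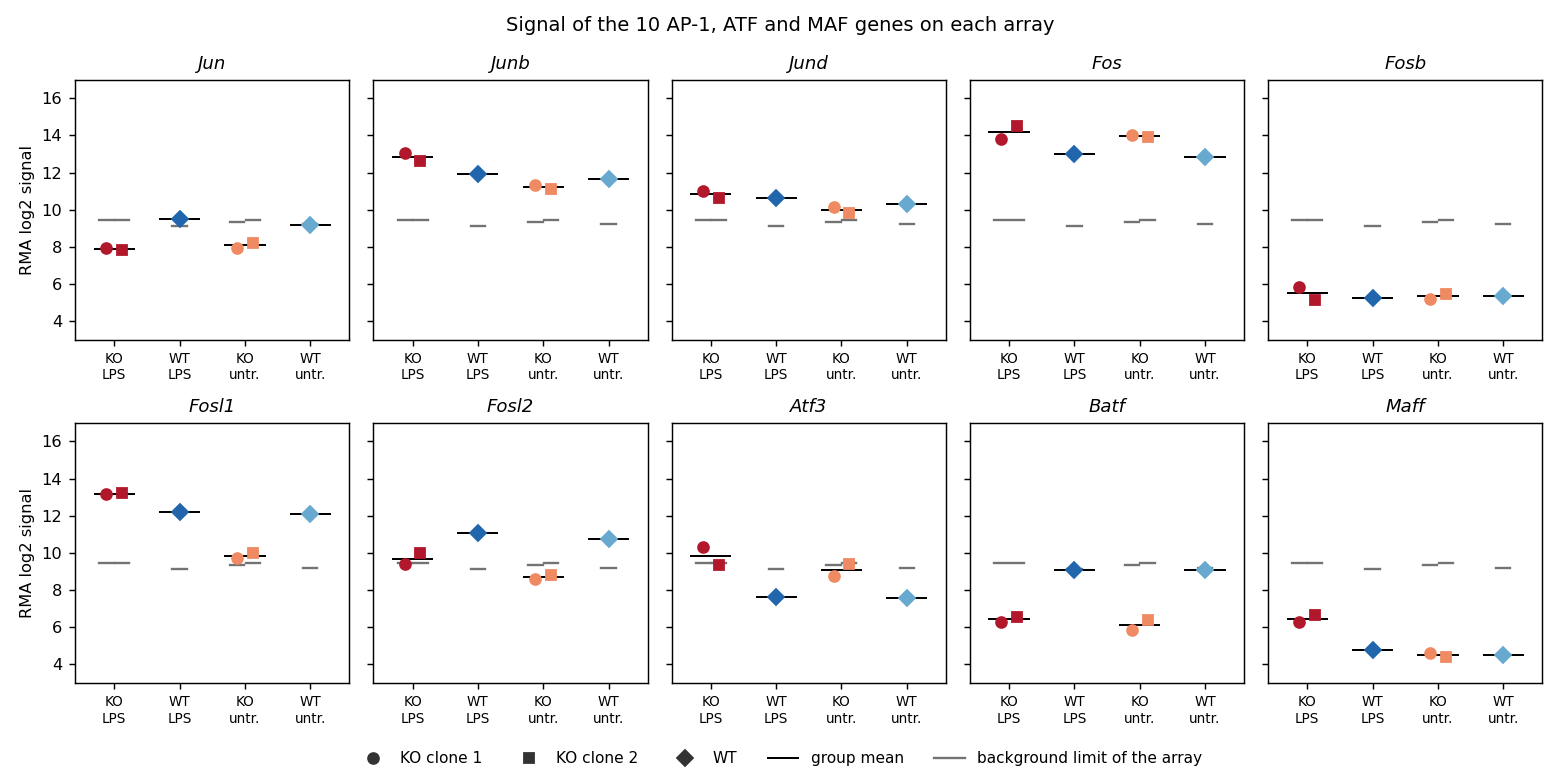
RMA log2 signal (vertical axis) of the 10 genes in KO cells with LPS, WT cells with LPS, untreated KO cells and untreated WT cells. Points are arrays, black lines group means and grey lines the background limit of each array; Fosl1 in the untreated clones (9.70 and 9.97) sits far under the other 4 arrays, which lie between 12.11 and 13.21.

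The JUN proteins are the DNA-binding partners on which FOS proteins depend. Jun, the founding member and a main substrate of JNK, had signals of 7.94 and 7.81 in KO clones #1 and #2 with LPS, against 9.51 in WT cells with LPS. In the untreated clones it had 7.95 and 8.19, against 9.20 in untreated WT cells. Both clones were under both WT arrays, and the only array above background was WT with LPS. The difference between KO and WT cells was -1.63 with LPS (SE 0.21, adjusted p = 0.00667), at least 1.05-fold lower in KO cells, and -1.13 untreated (SE 0.21, adjusted p = 0.0447), where both groups were dim. The untreated call was lost without clone #1 (adjusted p = 0.162) and without clone #2 (0.141). The call with LPS held without any 1 KO array. At 4 h, LPS minus untreated was -0.19 in KO cells (adjusted p = 0.558) and 0.31 in WT cells (1.00).

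Junb, which activates transcription more weakly than JUN in many settings, was well above background throughout. It had 13.05 and 12.64 in the clones with LPS, against 11.90 in WT cells with LPS. Junb had 11.32 and 11.12 in the untreated clones, against 11.67 in untreated WT cells. The KO arrays thus spanned the WT ones, from below untreated to above with LPS. In KO cells Junb rose with LPS by 1.63 (SE 0.20, adjusted p = 0.00425), which is 3.08-fold. KO minus WT was 0.94 with LPS (SE 0.24), which missed the threshold (adjusted p = 0.0662), and -0.45 untreated (adjusted p = 0.385). With the clone as a block the LPS difference passed (adjusted p = 0.0332), but that p leaves out the variation between clones.

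Jund, the JUN member that most cells express without a stimulus, had the least range of the 4 genes above background on every array. Its signals were 11.00 and 10.64 in the clones with LPS, against 10.60 in WT cells with LPS. Jund had 10.14 and 9.80 in the untreated clones, against 10.29 in untreated WT cells. It rose with LPS in KO cells by 0.86 (SE 0.21, adjusted p = 0.0422), and the groups did not overlap, but the call was lost without any 1 of the KO arrays except clone #2 with LPS (adjusted p = 0.0888 to 0.210). Between KO and WT cells it differed by 0.22 with LPS (adjusted p = 0.683) and by -0.32 untreated (0.558).

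In the FOS family, Fos had the same order in both treatments. It had 13.80 and 14.52 in the clones with LPS, against 13.01 in WT cells with LPS. Fos had 14.04 and 13.94 in the untreated clones, against 12.81 in untreated WT cells. All KO arrays exceeded both WT arrays. The differences, 1.15 with LPS (SE 0.32) and 1.18 untreated (SE 0.32), each over 2-fold, missed the threshold (adjusted p = 0.0795 and 0.115). In the fit blocked by clone, whose p leaves out the variation between clones, the LPS difference passed (0.0428) and the untreated one did not (0.0632). The untreated difference passed without either clone with LPS, which left it at 1.18 and changed only its spread. The clones with LPS differed from each other by 0.72, and without clone #1 with LPS, the lower one, the difference passed (1.51, adjusted p = 0.0138). At 4 h, LPS minus untreated was 0.17 in KO cells (adjusted p = 0.752), where the treatments overlapped, and 0.20 in WT cells (1.00).

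Fosl1 (FRA1), a FOS protein without a transactivation domain of its own that is itself a known AP-1 target, was lower in untreated KO cells and higher in KO cells with LPS. It had 13.18 and 13.21 in the clones with LPS, against 12.19 in WT cells with LPS. In the untreated clones it had 9.70 and 9.97, against 12.11 in untreated WT cells. The untreated clones were just above background and the lowest of all arrays, and the clones with LPS were the highest. Untreated KO cells were 4.84-fold lower than untreated WT cells (-2.27, SE 0.21, adjusted p = 0.00566), and KO cells with LPS were 2.01-fold higher than WT cells with LPS (1.00, SE 0.21, adjusted p = 0.0324). The untreated call held without any 1 KO array, whereas the LPS call was lost without any of them. The LPS difference was 1.02 without clone #1 with LPS and 0.99 without clone #2 with LPS. It stayed at 1.00 without either untreated clone, since those arrays enter only the estimate of spread. LPS raised Fosl1 10.2-fold in KO cells (3.36, SE 0.17, adjusted p = 0.000296), against a difference of 0.08 in WT cells (SE 0.24, adjusted p = 1.00). The responses differed by 3.28 (SE 0.29, adjusted p = 0.00859).

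Fosl2 (FRA2), the other FOS-related antigen and a regulator of osteoclast size in mice, was lower in KO cells in both treatments. Its signals were 9.39 and 9.99 in the clones with LPS, against 11.08 in WT cells with LPS. Fosl2 had 8.58 and 8.81 in the untreated clones, against 10.74 in untreated WT cells. Both WT arrays were above all KO arrays, of which 1, clone #2 with LPS, exceeded background. KO minus WT was -1.39 with LPS (SE 0.29, adjusted p = 0.0356) and -2.04 untreated (at least 2.53-fold lower, SE 0.29, adjusted p = 0.0244). With LPS the call was lost without clone #1 with LPS, where the difference was -1.10. It was also lost without either untreated clone, which left the difference at -1.39 and changed only its spread. Untreated, the call for Fosl2 was lost without clone #1 (-1.93) or #2 (-2.16). LPS raised it in KO cells by 0.99 (at least 1.22-fold, SE 0.24, adjusted p = 0.0419), a call lost without any 1 of the KO arrays except clone #1 with LPS (adjusted p = 0.0937 to 0.192).

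Fosb was at background on every array. It had 5.81 and 5.15 in the clones with LPS, against 5.23 in WT cells with LPS. Fosb had 5.20 and 5.48 in the untreated clones, against 5.34 in untreated WT cells. The clones lay on both sides of the WT array in each treatment, and no comparison passed (adjusted p = 0.716 to 1.00).

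**Figure D2:**
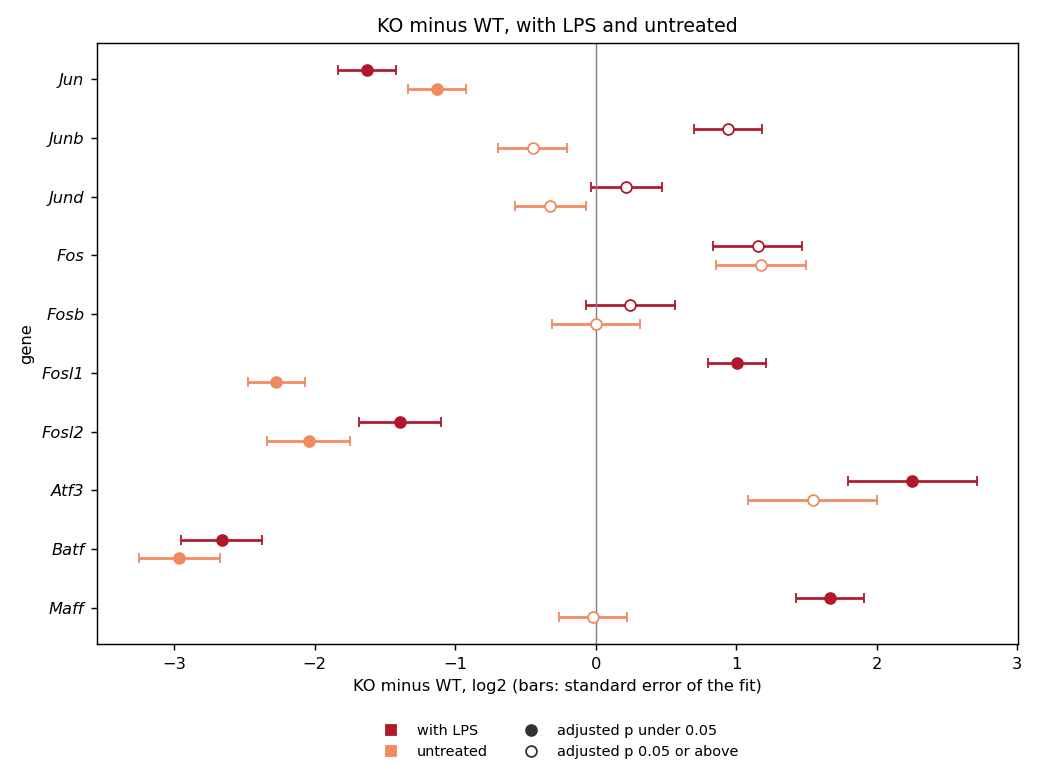
KO minus WT (horizontal axis, log2) for each gene with LPS and untreated. Points are fitted differences, bars the standard error of the fit and filled points an adjusted p under 0.05; Fosl1 lies at 1.00 with LPS and at -2.27 untreated, and Jun, Fosl2 and Batf lie under 0 in both.

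Atf3, the ATF-family repressor that LPS induces through TLR4 in mouse macrophages, was higher in KO cells with LPS. It had 10.34 and 9.36 in the clones with LPS, against 7.59 in WT cells with LPS. Atf3 had 8.77 and 9.41 in the untreated clones, against 7.54 in untreated WT cells. All KO arrays were above both WT arrays, but only clone #1 with LPS exceeded background. With LPS the difference was 2.25 (SE 0.46, adjusted p = 0.0323), at least 1.66-fold higher in KO cells if clone #2, under its limit, is taken as measured. The call was lost without either untreated clone, which left the difference at 2.25 and changed only its spread. Untreated, both groups were dim, and the difference of 1.55 (SE 0.46) missed the threshold (adjusted p = 0.140). It passed without either clone with LPS, which again changed only the spread. The clones differed by 0.98 with LPS and by -0.64 untreated (clone #1 minus #2), the widest clone differences among the 10 genes in each treatment. LPS minus untreated in KO cells was 0.76 (SE 0.37, adjusted p = 0.267), and it was 1.25 without clone #2 with LPS (0.0431).

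Batf encodes a bZIP protein without a transactivation domain that pairs with JUN proteins and with IRF4 or IRF8. Its signals were 6.26 and 6.57 in the clones with LPS, against 9.07 in WT cells with LPS. Batf had 5.84 and 6.38 in the untreated clones, against 9.08 in untreated WT cells. The WT arrays exceeded 94.8% and 94.5% of their negative control probes and so lay just under the limit, and the KO arrays exceeded between 54.7% and 69.1% of theirs. KO minus WT was -2.66 with LPS (SE 0.29, adjusted p = 0.00416) and -2.96 untreated (SE 0.29, adjusted p = 0.00714), with all groups dim. Both calls held without any 1 KO array. LPS minus untreated was 0.30 in KO cells (adjusted p = 0.502) and 0.00 in WT cells.

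Maff encodes a small MAF protein, which binds DNA as a dimer and has no transactivation domain. It had 6.26 and 6.65 in the clones with LPS, against 4.79 in WT cells with LPS. Maff had 4.59 and 4.38 in the untreated clones, against 4.51 in untreated WT cells. The clones with LPS stood above the other 4 arrays, all within the range of the negative controls. KO cells with LPS differed from WT cells with LPS by 1.67 (SE 0.24, adjusted p = 0.0106) and from untreated KO cells by 1.97 (SE 0.20, adjusted p = 0.00218). Both calls held without any 1 KO array. The untreated genotypes differed by -0.02 (adjusted p = 0.978). The difference between the LPS responses, 1.69 (SE 0.34), missed the threshold (adjusted p = 0.0678) and passed with the clone as a block (0.0479) and without clone #1 with LPS (0.0399).

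**Figure D3:**
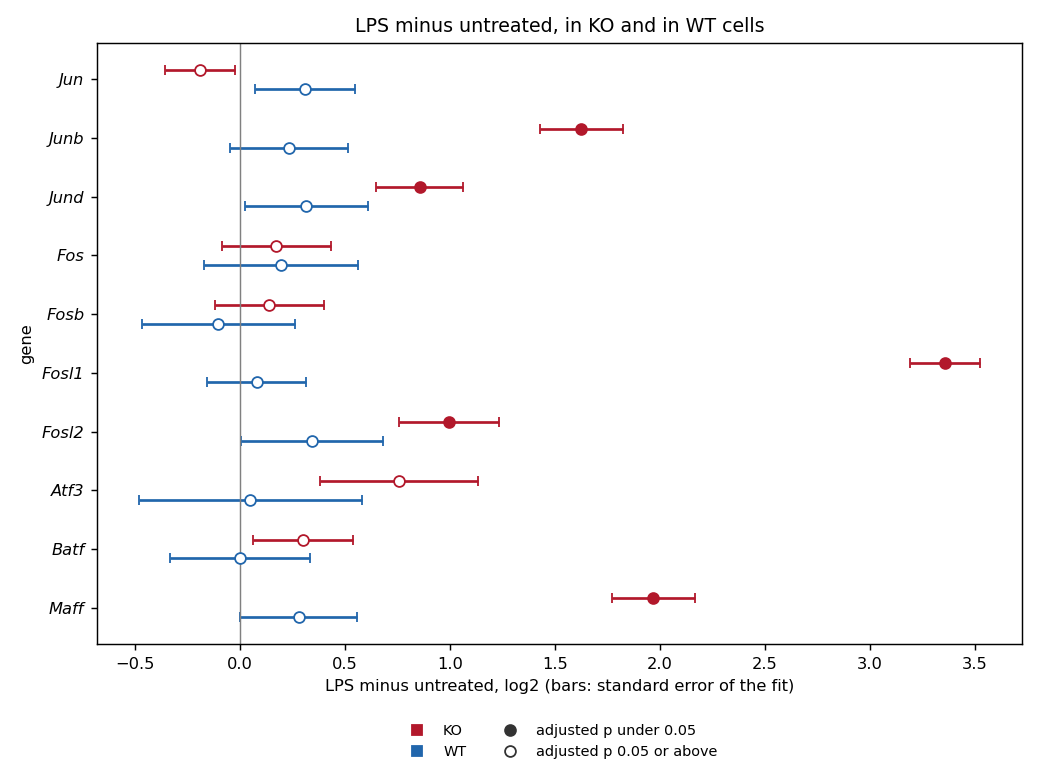
LPS minus untreated (horizontal axis, log2) for each gene in KO and in WT cells. Points are fitted differences, bars the standard error of the fit and filled points an adjusted p under 0.05; the WT points lie between -0.10 and 0.34, and Fosl1 in KO cells lies at 3.36.

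In WT cells the LPS differences of the 10 genes ran from -0.10 (Fosb) to 0.34 (Fosl2), all with an adjusted p of 1.00. With 1 array per treatment their standard errors of 0.24 to 0.53 rest on the clones, so changes of this size could not be told from no change. None of the 10 had an unadjusted p under 0.05. The difference between the responses was also uncalled for Junb (1.39, SE 0.34, adjusted p = 0.112), and the adjusted p was 0.0532 with the clone as a block and 0.0482 without clone #2 with LPS. For the other 7 genes beside Fosl1, Junb and Maff it ran from -0.50 (Jun) to 0.71 (Atf3).

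Levels of each gene could be ordered across the 4 groups, with a step taken as clear when it was wider than the widest gap between the clones. For Fosl1 the order was KO with LPS, WT with LPS, untreated WT and untreated KO, and only the step between the WT arrays was within that gap. For Junb the order and the unclear step were the same. In Fos the clear step was between the KO groups and the WT groups, and in Atf3 as well. Batf was split in the other direction, with both WT groups above both KO groups, all of them dim. For Fosl2 the order was WT with LPS, untreated WT, KO with LPS and untreated KO, and only the step between the WT arrays was unclear. For Jun, only the step between the KO groups was unclear. Its step between the WT arrays was 0.31, against a clone gap of 0.24, and was not called. In Maff, dim throughout, only the step from KO with LPS to WT with LPS was clear. No step of Jund or Fosb was clear.

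Beyond the 10, 22 bZIP genes were measured (of 25 listed). In LPS-treated KO cells 2 were higher than in WT cells (4.62% of all genes) and none lower (6.66%). The median difference was 0.15 beside 0.00 over all genes. Jdp2, a JUN dimerization partner that represses AP-1 and is known from osteoclast formation in mice, was 2.49-fold higher (1.31, SE 0.19, adjusted p = 0.0100). Mafk, another small MAF, was at least 1.49-fold higher (adjusted p = 0.0337), with 1 of the 2 clones above background. Untreated, Jdp2 alone passed, 14.2-fold lower in KO cells (-3.83, SE 0.19, adjusted p = 0.00125), where 2.14% of all genes were lower and 2.16% higher.

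Jdp2 had 15.61 and 15.62 in the clones with LPS, against 14.30 in WT cells with LPS. Jdp2 had 9.94 and 10.07 in the untreated clones, against 13.84 in untreated WT cells. As in Fosl1, the untreated clones were the lowest and the clones with LPS the highest. LPS raised 4 of the 22 in KO cells (6.84% of all genes) and lowered 1 (9.8%). Jdp2 rose 48.6-fold (SE 0.15, log2, adjusted p = 6.83e-05), Mafk at least 1.23-fold (adjusted p = 0.00158) and Atf4, the factor of the integrated stress response, 2.82-fold (adjusted p = 0.00278). Atf6, a sensor of the unfolded protein response, fell by 1.42 (adjusted p = 0.00275). Jdp2 alone passed for the difference between the responses (5.14, SE 0.27, adjusted p = 0.00269), where 1.43% of all genes were higher and 1.86% lower. In the RefSeq annotation, Jdp2 lies between Fos and Batf on chromosome 12, with Tmed10 and Flvcr2 on either side of the 3 genes. Across the 3 neighbours the calls differed: Fos was not called, Jdp2 was lower in untreated KO cells and higher in KO cells with LPS, and Batf was lower in both.

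**Figure D4:**
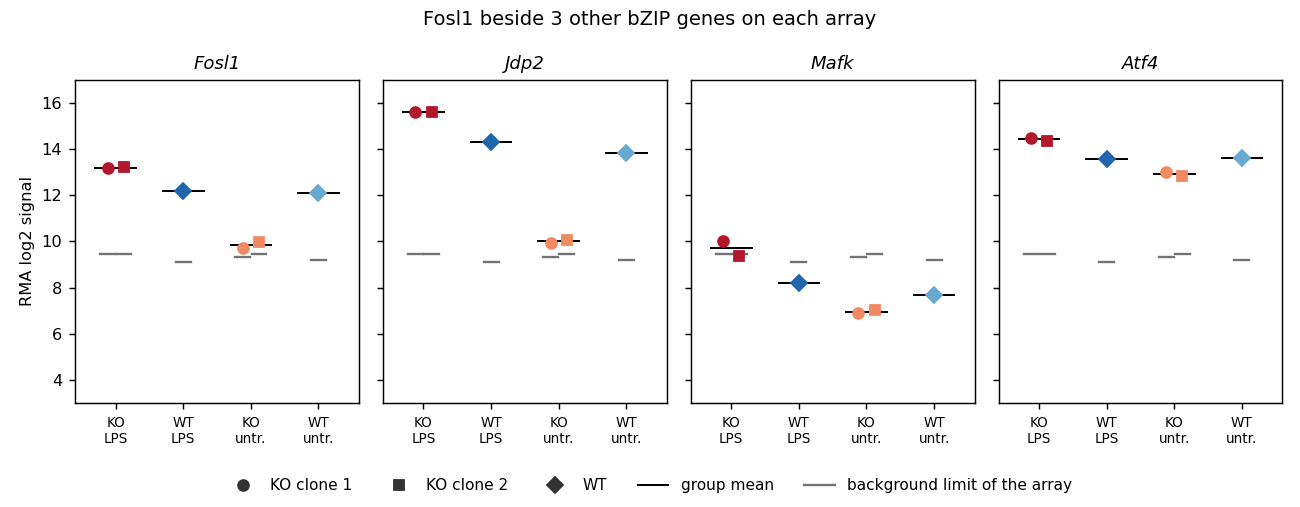
RMA log2 signal (vertical axis) of Fosl1, Jdp2, Mafk and Atf4 by group, drawn as in the plot of the 10 genes. The untreated clones have the lowest Fosl1 (9.70 and 9.97) and Jdp2 (9.94 and 10.07), and the clones with LPS the highest.

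Of 19 other immediate early genes, 7 were higher and 2 lower in LPS-treated KO than WT cells (4.62% and 6.66% of all genes). The median difference was 0.74. Zfp36, which encodes the mRNA-destabilizing protein tristetraprolin, was 8.64-fold higher (adjusted p = 0.00130), Dusp1, a MAP kinase phosphatase, 7.04-fold (0.00216), Ier3 5.44-fold (0.00193) and Csrnp1 at least 4.10-fold (0.00241). Untreated, 1 was higher in KO cells (2.16% of all genes), Egr2 (at least 8.61-fold, adjusted p = 0.0349). Another 3 were lower (2.14% of all genes), Myc 7.43-fold (0.00206), Ier3 2.49-fold (0.0314) and Egr3, dim in both groups. LPS raised 7 (6.84% of all genes) and lowered 2 (9.8%) in KO cells, with Ier3 24.6-fold and Myc 8.35-fold higher. The responses differed between KO and WT cells for 5 of the 19, all larger in KO cells (1.43% of all genes). At the lowest adjusted p were Ier3 (3.76, adjusted p = 0.00745), Zfp36 (3.48, 0.00972), Myc (2.73, 0.0102) and Csrnp1 (0.0165). Csrnp1 was dim in all groups but KO cells with LPS, so no size is given for it. Myc with LPS had 16.31 and 16.27 in the clones against 16.45 in WT cells, so its level with LPS was not higher in KO cells. Its larger response came with the lower untreated level of the clones (13.19 and 13.27 against 16.12 in untreated WT cells). In WT cells none of the 19 passed for LPS, and 1 had an unadjusted p under 0.05.

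Among the kinases and ternary complex factors that lead to AP-1, 15 were measured (of 18 listed). Of these, 1 was lower in LPS-treated KO than WT cells (6.66% of all genes), Map2k6 (-1.27, adjusted p = 0.0118), dim in both groups. None was higher (4.62% of all genes), and the median difference was 0.10. None differed in untreated cells (2.16% of all genes were higher and 2.14% lower), where 2 had an unadjusted p under 0.05. LPS raised 3 in KO cells (6.84% of all genes), Map2k1 (1.49, adjusted p = 0.0349), Tab2 (1.04, 0.00766) and Map2k4 (0.84, 0.0345). It lowered 2 (9.8% of all genes), Mapk9 (JNK2) and Tab1, of which Tab1 was dim in both treatments. Map2k1 and Map2k4 encode the kinases upstream of ERK and JNK, and Tab2 an adaptor of TAK1.

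Of 14 measured genes that textbooks name as AP-1 targets (of 16 listed), 7 were higher and 1 lower in LPS-treated KO than WT cells. The shares of all genes were 4.62% and 6.66%, and the median difference of the 14 was 1.27. Timp1, an inhibitor of metalloproteinases, had 14.57 and 14.56 in the clones with LPS, against 9.21 in WT cells with LPS, which is just above background, a 40.9-fold difference (adjusted p = 0.00112). Ccl2, a monocyte chemokine, was 24.3-fold higher (0.00137) and Plaur, the urokinase receptor, 4.00-fold (0.00238), whereas Mmp9, dim in both groups, was lower (-2.41, 0.00193). Untreated, 1 was higher (2.16% of all genes) and 5 were lower (2.14%) in KO cells. Tnf had 14.07 and 14.05 in the untreated clones, against 16.18 in untreated WT cells, 4.35-fold lower (adjusted p = 0.00544). Vegfa (-1.78, 0.0276) was dim in KO cells, and Timp1 (-3.58, 0.00746) and Mmp9 (-2.98, 0.00260) were dim in both groups. LPS raised 8 (6.84% of all genes) and lowered none (9.8%) in KO cells. The responses differed for Tnf, Plaur and Ccl2, all larger in KO cells (2.80 to 3.21, adjusted p = 0.00786 to 0.0462), and for Timp1 (0.00378), for which no size is given as both untreated groups were dim. Of all genes, 1.43% were higher in this test of the responses. Many of the 14 genes are also known targets of NF-κB.

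The genes whose pattern over the 6 arrays was closest to each member were found among the 6707 others above background on at least 1 array, by the root mean square (RMS) difference after each gene was centred on its mean. Closest to Fosl1 were Tnip1 (RMS 0.118, log2), Tnf (0.120) and Zc3h12c (0.188). Closest to Junb were Ppp4r2 (0.0789), Stam (0.0916) and Traf2 (0.0958), and to Jund Rnaseh1 (0.0910), Larp1 and Ddx23. Jun was closest to Pcgf6 (0.151), Fos to Clec4d (0.164), Fosl2 to Wdr55 (0.140) and Atf3 to Casp1 (0.236) and Gsdmd (0.287). These likenesses were picked as the best of many over 6 arrays and are a description.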

How the data were processed

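RAW-D cells were measured on 6 Clariom S arrays and grouped by genotype and treatment from their labels. The authors deposited RMA log2 signals (RMA includes background correction, quantile normalization and probe summary), and no source used here gives the software version. Of 28846 values per array, 22206 were probe sets of genes, 5222 negative and 1324 positive controls. The array annotation gave 19572 probe sets 1 symbol and 2634 none, and 55 symbols had several probe sets, of which the highest mean was kept.

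Tests were run in R 4.3.3 with limma 3.58.1, 1 mean for each group and the Benjamini-Hochberg adjustment (degrees of freedom: 2 residual, 3.83 prior). Arrays with the same clone number share a clone, and their deviations from the group means correlated across genes (0.222), so the numbers pair the KO arrays. The fit blocked by clone has 1 residual degree of freedom, and for KO against WT its p leaves out the variation between clones. Nothing says that cultures were repeated, so p-values measure the spread between clones. Genes named from the lists are up to 4 per list and comparison with the lowest adjusted p. The exception is the list of kinases and ternary complex factors, where all genes called for LPS in KO cells are named. The 10 genes, the lists and the tests were chosen with earlier results of these data known. The alternatives were the block, other normalizations, filters on dim signals, other moderation, fewer arrays, the mean over probe sets, the methods' t-test and a 2-fold rule. The fit was run on simulated arrays without clone effects, to check the sign and mean size of known differences. That run does not show how often calls are wrong in this design. Promoter windows and gene order came from RefSeq. The number of arrays limits the precision.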

Additional observations from a re-analysis of the deposited data

Results flagged for a closer look

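The LPS response of Fosl1 differed between the genotypes in a test of the difference itself. LPS minus untreated was 3.36 in KO cells and 0.08 in WT cells (log2), so the responses differed by 3.28 (SE 0.29, limma adjusted p = 0.00859). It passed in all 13 alternatives that gave a test, with values of 3.15 to 3.41 and adjusted p of 0.00198 to 0.0443. No other gene of the 10 passed in the unblocked fit over all arrays, and under the alternatives with a test Maff passed in 2 and Junb in 1. The WT response rests on 1 array per treatment, and the label of the untreated one names another summary level than the rest. For Fosl1, KO minus WT was -2.27 untreated and 1.00 with LPS. The larger part of the difference between the responses was thus the lower level of the untreated clones (9.70 and 9.97). Those signals were just above their background limits (9.34 and 9.45).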

How the results depend on the processing

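With LPS, 6 of the 10 genes were called between KO and WT cells, against 3 with only the arrays compared, 0 by the methods' t-test after adjustment, 2 by it unadjusted and 3 to 6 with a KO array left out. Untreated, 4 were called, against 0 and 1 by that t-test and 2 to 6 with an array left out. For LPS in KO cells 5 were called, against 0 and 3 by the t-test, 3 by a 2-fold rule in every clone and 3 to 5 with an array left out. For the difference between the responses 1 was called, against 2 with the clone as a replicate block, 3 by the 2-fold rule and 1 to 2 with an array left out. For KO against WT, the p of the fit with the clone block leaves out the variation between clones. With the block, 5 genes rather than 3 were higher in KO than WT cells with LPS, as Junb and Fos passed. Apart from this and the count for the difference between the responses, it moved no count of the 10 genes by over 1.5 times. In WT cells the count of the 10 was 0 in every setting run. The cause of these shifts was not tested. For KO minus WT, leaving out a KO array of the other treatment gives the fit of only the arrays compared. These are thus not separate checks. The t-test after adjustment called 0 and 3 of all genes between KO and WT cells with LPS and untreated, and 1 for LPS in KO cells.

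Over all genes, 2201 were called with LPS (1535 to 2512 with an array left out, 1535 with only the arrays compared), 840 untreated (214 to 1184, 1339 with the block, 1270 with an intensity trend, 1785 by the unadjusted t-test), 3246 for LPS in KO cells (1485 to 3064, 1827 by the 2-fold rule) and 641 for the difference between the responses (162 to 1175, 1078 with the block, 1815 by the 2-fold rule). Of the values of single genes under alternatives, 666 kept their direction and their side of the threshold, 53 lost the call, 24 gained one and 12 changed sign, none of them called. Fosb untreated was -0.0398 with median-centred arrays and -0.0609 after quantile normalization, and Batf in WT cells 0.00811 and 0.0244. With an array left out, Fosb ran from -0.0850 to 0.579 for KO minus WT with LPS, from -0.133 to 0.141 untreated, from -0.191 to 0.473 for LPS in KO cells and from -0.0888 to 0.575 for the difference between the responses. Maff untreated ran from -0.127 to 0.0862, and Fos from -0.186 to 0.532 for LPS in KO cells and from -0.382 to 0.336 for the difference. The t-test could not be made for WT cells or for the difference between the responses, and the fit of only the arrays compared gave no test for these.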

Other observations

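Egr1, Batf2 and Il6 are given as measured and were chosen after their values were seen. Egr1 had 12.92 and 11.72 in KO clones #1 and #2 with LPS, against 10.57 in WT cells with LPS. Egr1 had 12.79 and 12.14 in the untreated clones, against 10.34 in untreated WT cells. All KO arrays were above both WT arrays, but neither difference passed (1.75, adjusted p = 0.0984 with LPS, and 2.12, adjusted p = 0.0928 untreated). Batf2 had 11.20 in clone #1 with LPS and 7.92 in clone #2 with LPS, against 4.75 in WT cells with LPS, and the other arrays were at 5.37 to 5.70. It exceeded background in clone #1 with LPS alone. Il6 had 13.21 and 10.67 in the clones with LPS, against 8.78 in WT cells with LPS, and from 4.04 to 5.89 in untreated cells of both genotypes. Only the clones with LPS exceeded background for Il6, and the WT arrays and the untreated clones were dim.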
